A study of Mus musculus with 8 samples.

Results

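The DNA replication machinery and nucleotide supply genes examined here are 49 genes, chosen by symbol for what each is known to do, with earlier results of these data known. Each symbol occurred once among the 22520 genes and assembled transcripts of the table, and all 49 passed the filter on low values, which kept 10666. They fall into 10 role groups: the MCM helicase with *Mcm10*, GINS with *Cdc45*, licensing and firing control, the origin recognition complex, the sliding clamp and its loader, the replicative polymerases with primase, the single-strand binding protein, Okazaki fragment processing, chromatin assembly factor 1, and deoxynucleotide supply. Mouse CD8+ T cells from spleen, purified by negative magnetic selection, were kept under persistent T cell receptor stimulation with anti-CD3 and anti-CD28 antibodies and IL-2, and RNA was collected on day 6. From day 3, 4 cultures received 40 µM DADA (diisopropylamine dichloroacetate, an inhibitor of pyruvate dehydrogenase kinase) and 4 received the solvent DMSO in equal volume. No allele, deletion or other treatment was named for either group. A genotype field of the labels reads "control" or "model", although the groups differ by treatment, and the study's methods list young adult male C57BL/6J mice without tying them to these libraries. The labels call the libraries biological replicates and do not say whether they came from separate animals, so the p-values measure only the spread between these samples.

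Before S phase, the origin recognition complex marks origins, and CDC6 and CDT1 load the MCM ring there, a step called licensing that geminin blocks by binding CDT1. The kinase CDC7 with its activator DBF4 then triggers firing, and MCM joins CDC45 and GINS to form the active helicase. Primase and polymerase alpha start each strand, polymerases epsilon and delta extend it on the PCNA clamp, RPA covers bare single strands, FEN1 and LIG1 join the lagging strand, and CAF-1 places histones behind the fork. Ribonucleotide reductase, thymidylate synthase and thymidine kinase supply the deoxynucleotides. Many of these genes are textbook targets of E2F transcription factors, and activated CD8+ T cells induce them as they divide.

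E2F sites stand before many replication genes, so the letters TTTCCCGC, TTTCGCGC, TTTGCCGC and TTTGGCGC were searched on both strands of RefSeq promoter windows (250 bases before to 50 after each start, build GRCm38.p6). Of the members, 41 had a window and 8 had none (*Prim2*, *Gins4*, *Pole*, *Mcm4*, *Gins1*, *Gmnn*, *Rfc2* and *Gins2*). The letters occurred in 15 of the 41 (36.6%) and in 2.60% of the 27025 genes with a window in the table. Among members with a window, they occurred in 10 of the 34 called lower and in 5 of the other 7 (*Cdc6*, *Cdt1*, *Orc3*, *Pold3* and *Pole2*). In *Cdt1*, *Pold3* and *Pole2* they lay only after the start, as in *Lig1*, *Mcm3* and *Pold1* among those called lower. The 8 members without a window were all called lower, so the comparison lacks genes on that side only. A match is a description of the letters and not a binding site. The 180 bases before the start are shown for 5 members, chosen after their values were seen, to set the letters of *Cdc6*, which rose, and *Orc3*, which was not called, beside those of *Mcm5*, *Mcm6* and *Pola1*, which fell. Capitals mark the searched letters, every sequence runs 5′ to 3′ on the strand of its gene, and the windows are chr11:98907971-98908150 on the plus strand for *Cdc6*, chr4:34614943-34615122 on the minus strand for *Orc3*, chr8:75109329-75109508 on the plus strand for *Mcm5*, chr1:128359706-128359885 on the minus strand for *Mcm6* and chrX:93632156-93632335 on the minus strand for *Pola1*.
Cdc6: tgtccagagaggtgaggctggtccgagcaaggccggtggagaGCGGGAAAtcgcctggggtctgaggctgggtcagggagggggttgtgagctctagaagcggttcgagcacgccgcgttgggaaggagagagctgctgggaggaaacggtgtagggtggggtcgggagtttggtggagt
Orc3: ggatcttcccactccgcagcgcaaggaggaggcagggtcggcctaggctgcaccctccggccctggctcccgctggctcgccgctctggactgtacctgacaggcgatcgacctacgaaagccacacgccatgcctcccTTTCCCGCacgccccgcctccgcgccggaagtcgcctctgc
Mcm5: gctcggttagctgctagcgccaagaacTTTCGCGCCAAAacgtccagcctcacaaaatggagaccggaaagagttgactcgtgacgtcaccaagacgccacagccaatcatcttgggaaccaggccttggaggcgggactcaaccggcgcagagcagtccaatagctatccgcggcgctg
Mcm6: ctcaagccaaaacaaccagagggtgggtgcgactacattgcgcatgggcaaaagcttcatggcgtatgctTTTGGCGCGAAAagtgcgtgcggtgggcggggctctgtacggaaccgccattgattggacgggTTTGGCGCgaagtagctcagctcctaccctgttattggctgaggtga
Pola1: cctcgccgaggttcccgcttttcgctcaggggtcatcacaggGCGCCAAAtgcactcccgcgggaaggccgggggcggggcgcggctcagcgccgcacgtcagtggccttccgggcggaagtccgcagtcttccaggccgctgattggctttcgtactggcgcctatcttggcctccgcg

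*Cdc6* held 1 match (GCGGGAAA), at position -138 counted from its start, and *Pola1* held 1 (GCGCCAAA) at position -138 too. As these members were chosen after their values were seen, no conclusion is drawn from the shared position. *Orc3* held 1 match at position -41. In *Mcm5* and in *Mcm6* a match on one strand overlapped one on the other, which makes a longer run in capitals, and *Mcm6* held 3 matches in all. The CCAAT box (CCAAT, either strand), bound by NF-Y, occurred in 24 of the 41 members (58.5%) and in 41.1% of all genes with a window. It was in 23 of the 34 members called lower and in 1 of the other 7. The CHR letters (TTTGAA), known from genes of late cell cycle, occurred in 7 of the 41 (17.1%) and in 20.2% of all genes.

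Values are fragments scaled to transcript length and library size (FPKM), so levels could be set beside each other between genes. The depth was not in the files. An estimate from the steps of low values gave 13900000 to 16300000 fragments per library with DMSO and 15100000 to 18900000 with DADA. The fit was loose, as only 35.5% to 42.1% of low values lay near a whole fragment. The study's methods state a minimum volume of sequence per sample, with which the estimate was not compared. The search was held to a preset range that held no multiples, so a depth outside that range could not have been found. All 7 markers listed for CD8 T cells were expressed, and their summed level was 1030 to 1060 FPKM with DMSO and 1270 to 1300 FPKM with DADA. Of these, *Cd3d*, *Cd3e*, *Cd3g*, *Cd2* and *Lck* are T cell genes not particular to CD8 T cells. Mean levels with DMSO and DADA were 126 and 154 FPKM for *Cd8a*, 151 and 193 for *Cd8b1* and 170 and 287 for *Cd2*. The summed levels of other cell markers were 16.3 to 17.4 FPKM with DMSO and 15.3 to 15.8 with DADA for CD4 T cells (1 of 4 reached 1 FPKM), 2.59 to 3.56 and 2.36 to 3.09 for B cells (1 of 6, with *Pax5* at 0), 3.67 to 4.40 and 5.21 to 5.88 for myeloid cells (1 of 9, with *Csf1r*, *Adgre1*, *S100a8* and *S100a9* at 0) and 15.1 to 16.0 and 12.2 to 13.5 for NK cells (2 of 6). All 6 erythroid markers stayed under 1 FPKM. The CD4 sum was almost all *Zbtb7b* (mean 16.4 FPKM with DMSO and 15.0 with DADA), with *Cd4* itself at 0.283 and 0.213. The NK sum was mostly *Eomes* (13.7 and 10.5 FPKM), and *Ncr1*, *Klrb1c*, *Klra8* and *Tyrobp* stayed under 1 FPKM. The part of these markers in the results was not tested.

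The replication machinery was lower with DADA in nearly every role, by a modest amount for most genes. Of the 49 members, 42 fell (85.7%), 2 rose (*Cdc6* and *Pole2*) and 5 were not called (*Cdt1*, *Orc3*, *Orc5*, *Pold3* and *Rpa1*), with calls made at adjusted p-values under 0.05 (limma, Benjamini-Hochberg over all genes tested). Over all 10666 genes tested, 35.3% were called lower and 30.9% higher, so most genes were called in one direction or the other. Among the 8190 genes averaging 5 FPKM or more, a level that every member reached, 40.1% were called lower. The median log2 fold change of FPKM + 1 was -0.34 for the members, from -0.97 (*Tyms*) to 0.47 (*Cdc6*), and -0.02 for all genes tested. A drop of at least 0.5 on this scale was seen for 13 members, and for 0 members did the drop reach 1. Every DADA library lay below every DMSO library for 41 members, against 32.2% of all genes tested, every DADA library lay above for 2, and the groups overlapped for 6. RNA came from bulk cultures, in which fewer cells in S phase and less of these mRNAs per cell cannot be told apart.

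**Figure D1:**
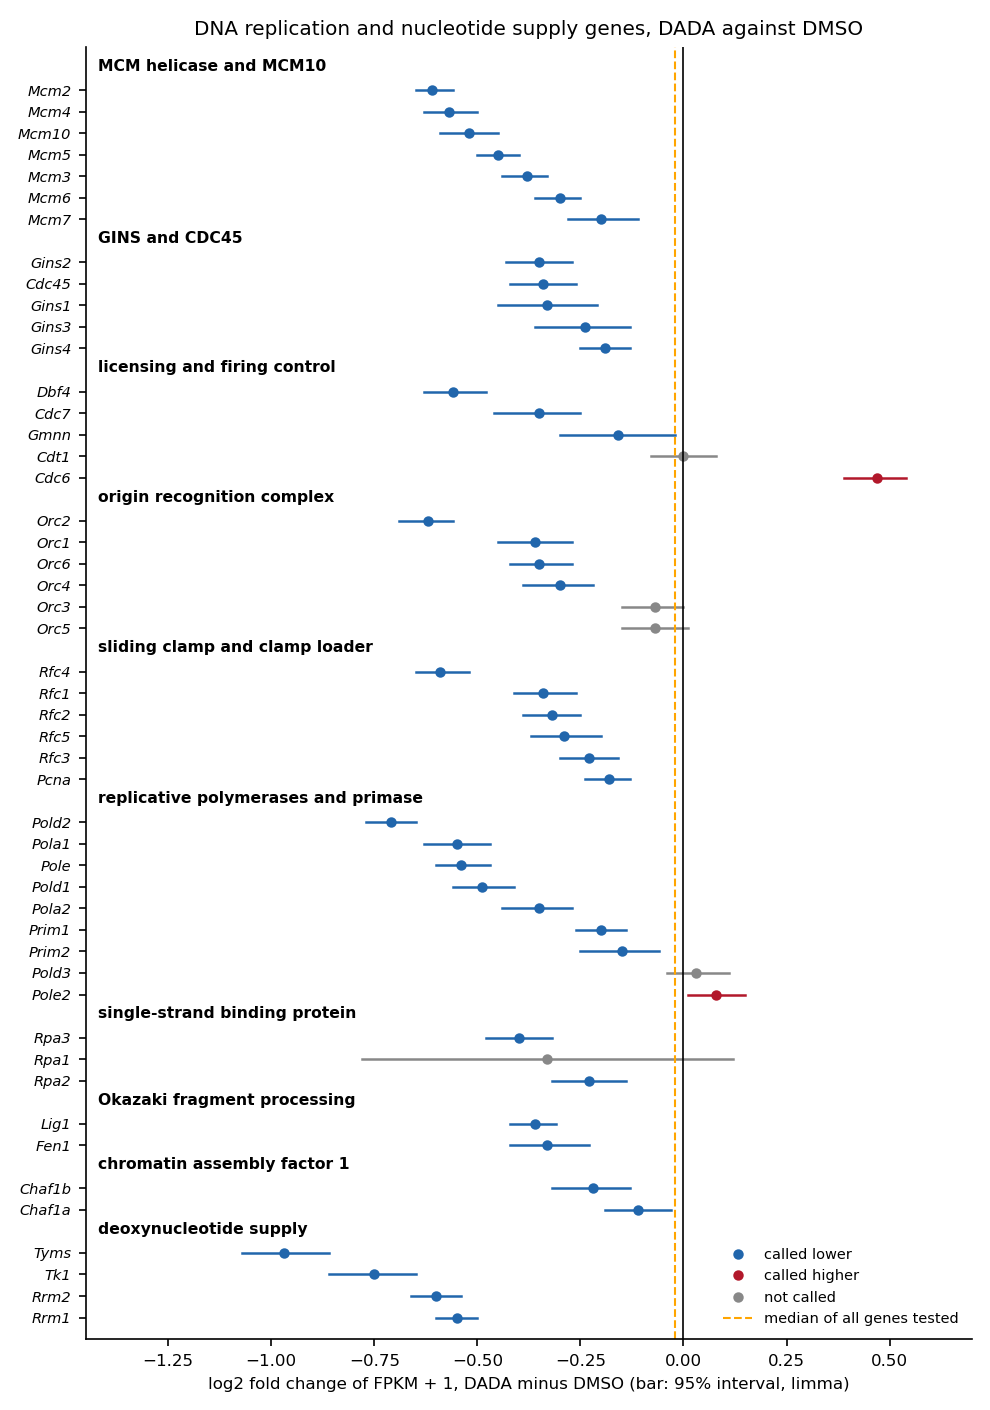
Log2 fold change of FPKM + 1, DADA minus DMSO (x axis), for each of the 49 members by role (y axis), with the 95% interval from limma (bars), coloured by call. The points lie from -0.97 for *Tyms* to 0.47 for *Cdc6*, and most are left of the dashed line at the median of all genes tested, -0.02.

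Summed over the 49 members, the libraries held 2436 to 2473 FPKM with DMSO and 1911 to 1939 FPKM with DADA. This was 0.541% to 0.545% of all FPKM with DMSO and 0.427% to 0.442% with DADA, without overlap. Replicates were close, since the coefficient of variation of a member over its 4 libraries had a median of 2.78% with DMSO and 2.82% with DADA. *Rpa1* was the exception, at 27.1% and 20.5%, and the next highest value was 6.06% with DMSO (*Chaf1b*) and 9.44% with DADA (*Gmnn*). Mean levels with DMSO ran from 7.33 FPKM (*Gins3*) to 261 FPKM (*Pcna*), with a median of 39.5 FPKM, and with DADA from 6.03 to 230 FPKM, with a median of 29.2 FPKM. The clamp *Pcna* stood far above the other members in both groups, followed by *Mcm6*. Behind them, *Mcm3* (111 to 117 FPKM), *Mcm5* (109 to 112) and *Rrm2* (107 to 114) overlapped with DMSO. With DADA these genes no longer overlapped in level, at 86.2 to 88.9 FPKM for *Mcm3*, 78.3 to 82.7 for *Mcm5* and 72.8 to 74.0 for *Rrm2*.

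**Figure D2:**
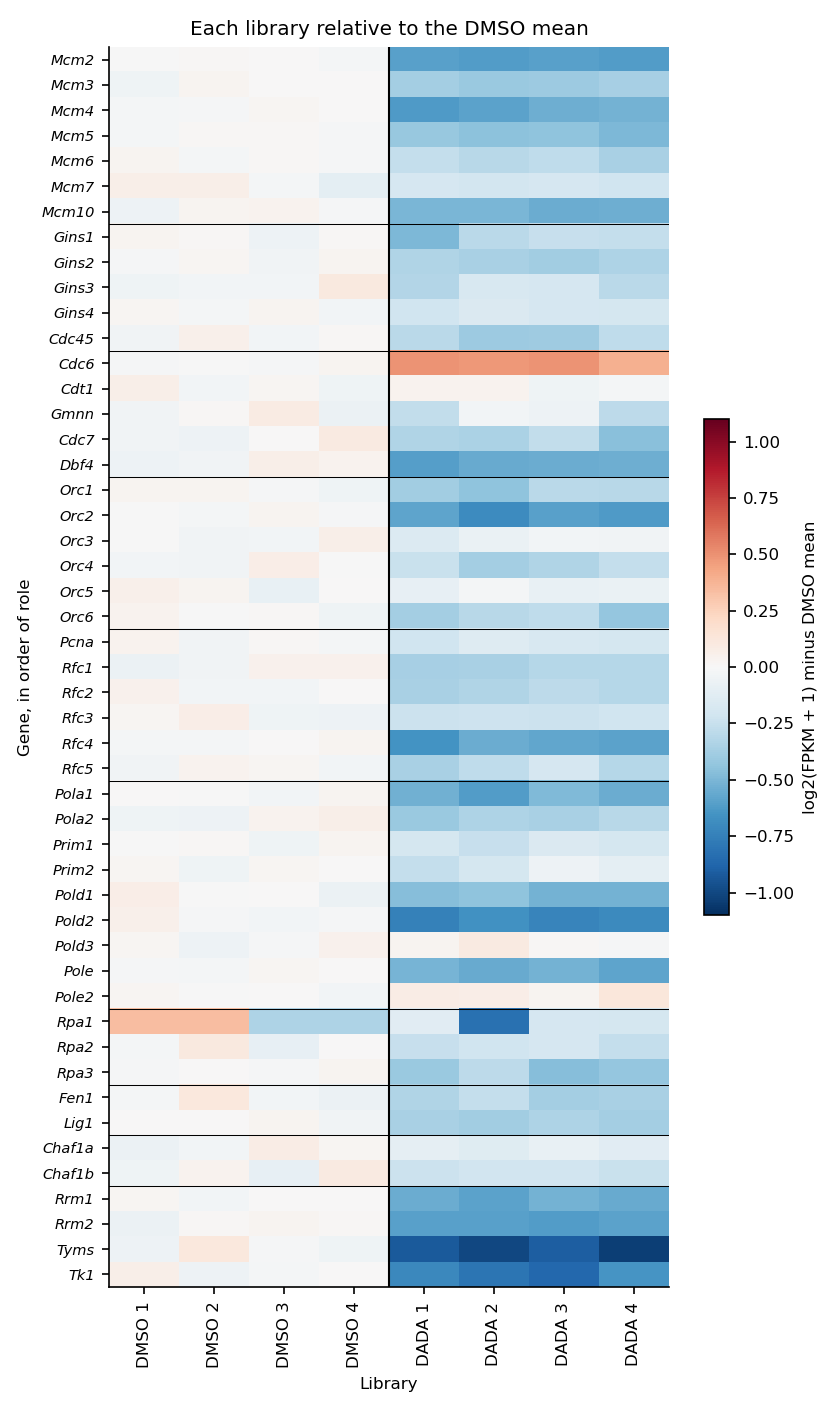
Each of the 49 members (rows, by role) in each of the 8 libraries (columns), as log2(FPKM + 1) minus the mean of the 4 DMSO libraries, with blue for lower and red for higher. The 4 DADA columns are blue for most rows, the *Cdc6* row is red in all 4, and *Rpa1* is split within both groups.

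Deoxynucleotide supply had the lowest median of the 10 roles, a log2 fold change of -0.68, with 4 of 4 genes lower, each by at least 0.5. *Tyms*, thymidylate synthase, which makes dTMP from dUMP, was at 22.8, 25.9, 23.6 and 23.0 FPKM in DMSO 1 to 4 and at 12.1, 11.4, 12.2 and 11.1 FPKM in DADA 1 to 4. The highest DADA library was far below the lowest DMSO library. Its mean fell from 23.8 ± 1.43 to 11.7 ± 0.536 FPKM (SD, n = 4 each), which gives a log2 fold change of -0.97 (95% interval -1.07 to -0.86, adjusted p = 5.83e-08, limma). *Tk1*, the thymidine kinase that salvages thymidine, was at 52.3, 48.0, 49.2 and 49.9 FPKM with DMSO and at 30.1, 28.2, 27.0 and 31.4 FPKM with DADA. The groups were apart again, and the log2 fold change was -0.75 (-0.86 to -0.65, adjusted p = 2.87e-07, limma). Both routes to dTMP, synthesis and salvage, thus had lower mRNA with DADA. *Rrm1* and *Rrm2*, the subunits of ribonucleotide reductase, changed by -0.55 and -0.60 on the log2 scale, each without overlap. *Tyms* lost ground to both: the log2 ratio of *Tyms* to *Rrm1* was lower with DADA by 0.41 and the ratio to *Rrm2* by 0.37, without overlap (exact permutation test, p = 0.0286, adjusted p = 0.0444 over the pairs described below). Here and below, every ratio without overlap has these same p-values. Of all pairs of genes tested, 60.8% had a ratio without overlap, so the p-values do not set a pair apart. The ratio of *Rrm2* to *Rrm1* overlapped between the groups, with a difference of -0.05.

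All 7 helicase genes fell, with a median log2 fold change of -0.45. *Mcm2*, a subunit of the hexamer, was at 68.2, 69.0, 68.7 and 67.4 FPKM with DMSO and at 44.9, 44.2, 44.8 and 44.2 FPKM with DADA. Replicates were nearly level within each group, and the mean was 34.9% lower, a log2 fold change of -0.61 (-0.65 to -0.56, adjusted p = 3.54e-09, limma). *Mcm4* was at 84.4, 85.0, 87.0 and 85.8 FPKM with DMSO and at 55.2, 56.5, 58.8 and 59.4 FPKM with DADA. This subunit also showed no overlap, with a log2 fold change of -0.57 (-0.63 to -0.50, adjusted p = 5.44e-08, limma). *Mcm10*, a separate factor that helps activate the helicase, was at 25.6, 27.2, 27.5 and 26.5 FPKM with DMSO and at 18.5, 18.6, 18.0 and 18.1 FPKM with DADA. Again the groups were apart, and the change was -0.52 on the log2 scale (-0.59 to -0.45, adjusted p = 1.99e-07, limma). The subunits of the hexamer did not fall by equal amounts: *Mcm5*, *Mcm3*, *Mcm6* and *Mcm7* changed by -0.45, -0.38, -0.30 and -0.20, and *Mcm2* fell against *Mcm7* by 0.41 on the log2 scale (exact permutation test, p = 0.0286, adjusted p = 0.0444). With DMSO, *Mcm4* was above *Mcm7* in every library (log2 ratio 0.14 to 0.33), and with DADA it was below in every library (-0.22 to -0.08).

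GINS and *Cdc45*, which complete the active helicase, were lower in 5 of 5, with a median log2 fold change of -0.33. *Gins2* was at 9.39, 9.68, 9.25 and 9.71 FPKM with DMSO and at 7.36, 7.20, 7.07 and 7.32 FPKM with DADA. *Cdc45* was at 50.0, 53.7, 50.4 and 51.9 FPKM with DMSO and at 41.7, 38.9, 39.1 and 42.2 FPKM with DADA. For both, all DADA libraries lay under all DMSO libraries, with log2 fold changes of -0.35 (-0.43 to -0.27, adjusted p = 1.06e-05, limma) and -0.34 (-0.42 to -0.26, adjusted p = 1.58e-05, limma). *Gins1*, *Gins3* and *Gins4* changed by -0.33, -0.24 and -0.19. Within this group, 2 of 10 pairs of genes had a ratio without overlap between DMSO and DADA, and the furthest of these differences was -0.16 on the log2 scale.

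Licensing and firing control was the most divided role, with 3 genes lower, 1 higher and 1 not called. *Cdc6*, the MCM loader, was at 12.5, 12.6, 12.5 and 12.9 FPKM with DMSO and at 18.2, 18.0, 18.2 and 16.9 FPKM with DADA. Every DADA library was above every DMSO library, with a mean of 141% of that with DMSO and a log2 fold change of 0.47 (0.39 to 0.54, adjusted p = 8.08e-07, limma). *Cdt1*, its partner in loading, was at 30.0, 28.1, 29.1 and 27.7 FPKM with DMSO and at 29.6, 29.6, 27.7 and 28.2 FPKM with DADA. These ranges overlapped throughout, with a log2 fold change of 0.00 and a 95% interval of -0.08 to 0.08 (adjusted p = 0.977, limma). *Dbf4*, the activator of the CDC7 kinase, was at 46.1, 46.8, 50.2 and 49.4 FPKM with DMSO and at 31.3, 32.5, 32.6 and 32.9 FPKM with DADA. It showed no overlap and a log2 fold change of -0.56 (-0.63 to -0.48, adjusted p = 2.28e-07, limma), and *Cdc7* itself changed by -0.35. The ratio of *Dbf4* to *Cdc6* had the largest difference of any pair, with a log2 ratio of 1.80 to 1.92 with DMSO and 0.75 to 0.92 with DADA, lower by 1.03. *Gmnn*, geminin, was called lower at -0.16 (adjusted p = 0.0440, limma), although its libraries overlapped at 57.3 to 64.0 FPKM with DMSO and 49.1 to 58.6 FPKM with DADA. That call was lost under 10 of 16 other settings of the analysis, 5 of them the omission of 1 library (DMSO 1, DMSO 2, DMSO 3, DADA 1 or DADA 4), with adjusted p-values from 0.00743 to 0.118 over the 16.

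**Figure D3:**
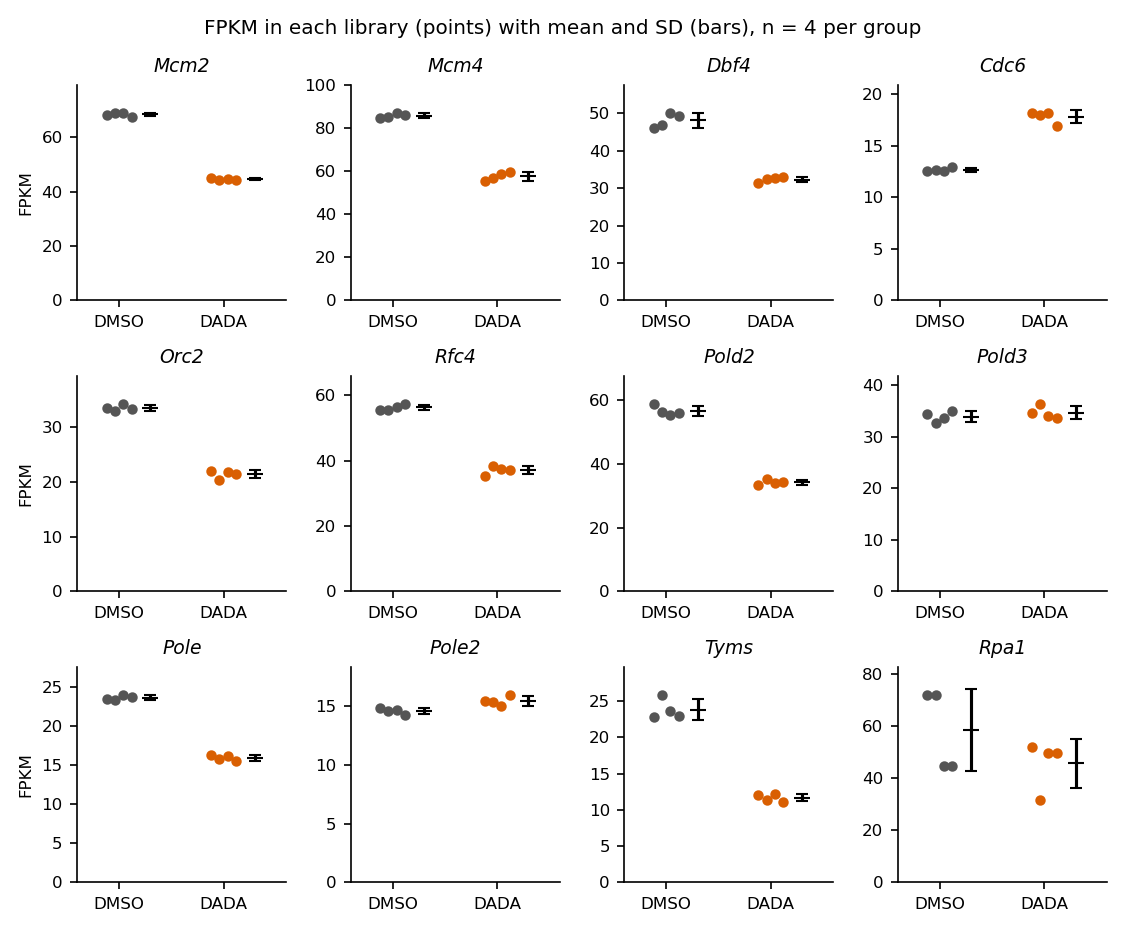
FPKM (y axis, from 0) of 12 members in each of the 4 DMSO and 4 DADA libraries (points), with the mean and SD (bars). *Cdc6* is higher with DADA, *Pold3* overlaps, *Pole2* is slightly higher, *Rpa1* has libraries at separate levels within each group, and the other 8 are lower without overlap.

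In the origin recognition complex, 4 of 6 genes fell and 2 were not called, with a median log2 fold change of -0.33. *Orc2* was at 33.4, 32.9, 34.2 and 33.2 FPKM with DMSO and at 22.0, 20.3, 21.8 and 21.3 FPKM with DADA. Its groups were far apart, with a log2 fold change of -0.62 (-0.69 to -0.56, adjusted p = 6.21e-08, limma). *Orc1*, the subunit known to vary over the cell cycle, was at 16.8, 16.8, 16.3 and 15.9 FPKM with DMSO and at 12.4, 11.8, 13.2 and 13.1 FPKM with DADA. *Orc6* was at 68.3, 66.3, 67.0 and 64.5 FPKM with DMSO and at 51.0, 53.7, 54.6 and 49.3 FPKM with DADA. Neither overlapped, and the log2 fold changes were -0.36 (adjusted p = 2.89e-05, limma) and -0.35 (adjusted p = 1.12e-05, limma). *Orc4* changed by -0.30. *Orc3* (47.7 to 51.2 FPKM with DMSO and 44.0 to 47.9 with DADA) and *Orc5* (19.3 to 21.3 and 19.2 to 20.2) overlapped between the groups, each with a log2 fold change of -0.07 and 95% intervals of -0.15 to 0.00 and -0.15 to 0.01. Without DMSO 3, *Orc5* was called lower at -0.09 (adjusted p = 0.0323, limma). *Orc2* fell against *Orc3* by 0.55 and against *Orc5* by 0.56 on the log2 scale, without overlap (exact permutation test, p = 0.0286, adjusted p = 0.0444 for each).

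The sliding clamp and its loader were lower in 6 of 6, with a median log2 fold change of -0.30. *Rfc4* was at 55.6, 55.6, 56.6 and 57.5 FPKM with DMSO and at 35.3, 38.3, 37.6 and 37.2 FPKM with DADA. It stood out among the loader genes, with no overlap and a log2 fold change of -0.59 (-0.65 to -0.52, adjusted p = 5.70e-08, limma). *Rfc1*, the large subunit, was at 35.5, 36.1, 38.4 and 38.4 FPKM with DMSO and at 28.5, 28.8, 29.7 and 29.6 FPKM with DADA. *Rfc2* was at 22.2, 21.0, 21.0 and 21.5 FPKM with DMSO and at 16.5, 16.8, 17.4 and 17.0 FPKM with DADA. Both lay lower in every DADA library, with log2 fold changes of -0.34 (adjusted p = 9.02e-06, limma) and -0.32 (adjusted p = 7.95e-06, limma). *Rfc5*, *Rfc3* and the clamp *Pcna* changed by -0.29, -0.23 and -0.18. The ratio of *Rfc4* to each of the other 5 genes fell without overlap, from a difference of -0.25 against *Rfc1* to -0.41 against *Pcna*.

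Among the polymerases and primase, 7 of 9 genes fell, 1 rose and 1 was not called, with a median log2 fold change of -0.35. *Pold2*, the second subunit of polymerase delta, was at 58.8, 56.1, 55.4 and 55.9 FPKM with DMSO and at 33.3, 35.2, 33.8 and 34.4 FPKM with DADA. The mean was 39.5% lower, a log2 fold change of -0.71 (-0.77 to -0.65, adjusted p = 1.18e-08, limma), without overlap. *Pola1*, the catalytic subunit of polymerase alpha, was at 19.8, 19.6, 19.3 and 20.2 FPKM with DMSO and at 13.4, 12.5, 13.8 and 13.2 FPKM with DADA. *Pole*, the catalytic subunit of polymerase epsilon, was at 23.4, 23.3, 24.0 and 23.7 FPKM with DMSO and at 16.3, 15.8, 16.2 and 15.5 FPKM with DADA. For these catalytic subunits the groups were also apart, with log2 fold changes of -0.55 (adjusted p = 4.40e-07, limma) and -0.54 (adjusted p = 9.31e-08, limma). *Pold1*, the catalytic subunit of polymerase delta, changed by -0.49, *Pola2* by -0.35, and the primase genes *Prim1* and *Prim2* by -0.20 and -0.15.

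Other subunits of these same enzymes were not called lower. *Pole2*, the second subunit of polymerase epsilon, was at 14.9, 14.6, 14.7 and 14.3 FPKM with DMSO and at 15.5, 15.4, 15.0 and 16.0 FPKM with DADA. Its DADA libraries were slightly above all DMSO libraries, with a log2 fold change of 0.08 (0.01 to 0.15, adjusted p = 0.0490, limma). This call was lost under 8 of 16 other settings, 6 of them the omission of 1 library (DMSO 2, DMSO 3, DMSO 4, DADA 1, DADA 2 or DADA 4), with adjusted p-values from 0.0125 to 0.135 over the 16. *Pold3*, the third subunit of polymerase delta, was at 34.3, 32.6, 33.6 and 35.0 FPKM with DMSO and at 34.5, 36.4, 34.1 and 33.6 FPKM with DADA. The groups overlapped, and the log2 fold change was 0.03 (-0.04 to 0.11, adjusted p = 0.429, limma). Within polymerase epsilon, the log2 ratio of *Pole* to *Pole2* was 0.62 to 0.69 with DMSO and -0.05 to 0.10 with DADA. Within polymerase delta, the ratio of *Pold2* to *Pold3* was 0.66 to 0.77 with DMSO and -0.05 to 0.04 with DADA. The mRNA of these pairs was thus at nearly equal FPKM with DADA, where *Pole* and *Pold2* had been at higher FPKM with DMSO. Both differences (-0.62 and -0.74) were without overlap (exact permutation test, p = 0.0286, adjusted p = 0.0444). Other pairs of polymerase delta were not level with DADA. The log2 ratio of *Pold1* to *Pold3* was 0.16 to 0.33 with DMSO and -0.28 to -0.22 with DADA. That of *Pold2* to *Pold1* was 0.42 to 0.50 with DMSO and 0.17 to 0.27 with DADA.

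*Rpa3*, the smallest subunit of the single-strand binding protein, was at 55.0, 55.7, 54.9 and 56.6 FPKM with DMSO and at 41.7, 45.2, 39.9 and 41.1 FPKM with DADA. It was lower in every DADA library, with a log2 fold change of -0.40 (-0.48 to -0.32, adjusted p = 5.68e-06, limma), and *Rpa2* changed by -0.23. *Rpa1*, the large subunit, was at 71.9, 72.0, 44.6 and 44.7 FPKM in DMSO 1 to 4 and at 51.8, 31.7, 49.7 and 49.5 FPKM in DADA 1 to 4. Its DMSO libraries fell into a pair near 72 and a pair near 44.7, and DADA 2 lay far below the other DADA libraries, so the groups overlapped widely. The log2 fold change of -0.33 had an interval of -0.78 to 0.12 and was not called (adjusted p = 0.172, limma). Single libraries decided its size, as it was -0.17 without DADA 2, -0.22 without DMSO 1 or DMSO 2 and -0.45 without DMSO 3, and it was called in none of the 16 other settings. At this spread a change in *Rpa1* of the size seen in *Rpa2* and *Rpa3* was not detectable.

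*Lig1*, the ligase that seals Okazaki fragments, was at 58.9, 58.7, 59.9 and 57.0 FPKM with DMSO and at 45.6, 44.8, 46.0 and 45.0 FPKM with DADA. *Fen1*, the flap nuclease that trims them, was at 38.9, 42.9, 38.6 and 37.7 FPKM with DMSO and at 31.1, 32.8, 30.3 and 30.7 FPKM with DADA. Both fell without overlap, by -0.36 (adjusted p = 4.51e-07, limma) and -0.33 (adjusted p = 7.07e-05, limma), and their ratio overlapped between the groups, with a difference of -0.03. *Chaf1b*, a subunit of CAF-1, was at 18.6, 19.8, 18.0 and 20.6 FPKM with DMSO and at 16.2, 16.5, 16.5 and 16.1 FPKM with DADA. *Chaf1a*, the large subunit, was at 21.1, 21.6, 23.4 and 22.4 FPKM with DMSO and at 20.6, 20.1, 20.9 and 20.2 FPKM with DADA. CAF-1 was among the least changed roles, with log2 fold changes of -0.22 (adjusted p = 0.000887, limma) and -0.11 (adjusted p = 0.0191, limma). The call for *Chaf1a* was lost without DMSO 3 (-0.08, adjusted p = 0.0503, limma).

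Ratios between genes of the same role were compared between the groups for 118 pairs, as differences of log2(FPKM + 1) within each library, which do not depend on a library's scale apart from the added 1. In 76 pairs the ratio did not overlap between DMSO and DADA, each with an adjusted p-value under 0.05 (exact permutation test over 70 assignments, where 0.0286 is the smallest p possible, Benjamini-Hochberg over the 118 pairs), and in 42 it overlapped. The share without overlap, 64.4%, was near that of all pairs of genes tested (60.8%) and of all pairs of genes averaging 5 FPKM or more (64.3%), so the count is not particular to these genes. By role, the polymerases and primase held 29 such pairs of 36, the helicase 16 of 21, the origin recognition complex 11 of 15, licensing 8 of 10, the clamp and loader 7 of 15, deoxynucleotide supply 3 of 6 and GINS with *Cdc45* 2 of 10. RPA, Okazaki processing and CAF-1 held none of 3, 1 and 1. Pairs share genes and are not independent.

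Genes outside the 49 were counted in 4 companion lists, to be read beside the 35.3% of all genes tested that were called lower. Of 33 other replication fork and origin factors, 28 fell (84.8%), 1 rose and 4 were not called (*Pole3*, *Pole4*, *Donson* and *Rnaseh2c*), with a median log2 fold change of -0.37. *Recql4*, a helicase that acts in initiation, was at 22.7, 21.9, 22.3 and 21.2 FPKM with DMSO and at 10.3, 8.80, 9.72 and 9.38 FPKM with DADA. The change, -1.13 on the log2 scale, lay below that of every member of the 49 (adjusted p = 1.71e-08, limma), followed by *Mtbp*, a partner of the firing factor treslin, at -0.68 (adjusted p = 1.15e-08, limma). *Pold4*, the smallest subunit of polymerase delta, rose from 33.6 ± 1.52 to 40.5 ± 1.48 FPKM, which is a log2 difference of 0.26 (adjusted p = 0.000161, limma). Polymerase delta thus had *Pold1* and *Pold2* lower, *Pold3* not called and *Pold4* higher. In polymerase epsilon, *Pole* was lower, *Pole2* barely higher, and *Pole3* and *Pole4* had log2 fold changes of -0.01 and -0.06 with intervals of -0.09 to 0.07 and -0.15 to 0.04.

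Of 34 other genes of nucleotide metabolism, 30 fell (88.2%), 3 rose and 1 (*Uck2*) was not called, with a median log2 fold change of -0.45. The list was drawn up for nucleotide synthesis, but *Samhd1*, counted among those that rose, is not a synthesis gene. *Gart*, which catalyses 3 steps of purine synthesis, was at 112, 117, 115 and 113 FPKM with DMSO and at 54.7, 51.2, 54.3 and 53.3 FPKM with DADA. The mean with DADA was 46.7% of that with DMSO, a log2 fold change of -1.09 (adjusted p = 3.53e-10, limma). *Shmt1*, which feeds folate carbon to thymidylate synthesis, changed by -0.83 (adjusted p = 1.22e-07, limma). Against them stood *Samhd1*, the enzyme that breaks down deoxynucleoside triphosphates, at 59.7, 61.9, 59.6 and 66.5 FPKM with DMSO and 150, 145, 152 and 143 FPKM with DADA. It rose without overlap to 238% of the DMSO mean, a log2 fold change of 1.24 (1.16 to 1.32, adjusted p = 1.51e-09, limma). *Impdh1*, of guanine nucleotide synthesis, and *Ctps2*, a CTP synthase, rose by 0.42 (adjusted p = 9.34e-07, limma) and 0.31 (adjusted p = 1.69e-05, limma).

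The list of E2F, pocket protein and S phase cyclin genes also held *Cdk2*, the CDK inhibitors *Cdkn1a* and *Cdkn1b*, *Mybl2*, *Lin9*, *Lin37* and *Lin54*. Of its 23 genes, 10 fell (43.5%), 7 rose and 6 were not called, with a median log2 fold change of -0.06. These shares were near those of all genes tested, of which 35.3% were called lower and 30.9% higher. They pool cyclins with CDK inhibitors and do not describe each kind of gene. The cyclin genes *Ccna2*, *Ccne1* (-0.16) and *Ccne2* (-0.16) and the kinase gene *Cdk2* (-0.40) were all called lower. Those called higher were *Cdkn1a*, *Cdkn1b*, *Lin37*, *Lin54*, *Rbl2*, *E2f1* and *E2f2*. The genes of the list that fell most were *Ccna2*, cyclin A, at -0.68 (adjusted p = 3.65e-08, limma), and *Tfdp1*, the partner with which E2F factors bind DNA, at -0.61 (adjusted p = 1.10e-08, limma). *Cdkn1b*, the CDK inhibitor p27, rose from 17.3 ± 1.01 to 33.1 ± 1.17 FPKM, a difference of 0.90 in log2 terms (adjusted p = 5.77e-08, limma). *Cdkn1a*, the CDK inhibitor p21, rose from 102 ± 1.41 to 170 ± 7.60 FPKM, a difference of 0.73 in log2 terms (adjusted p = 2.46e-08, limma). *E2f1* and *E2f2* were called higher at 0.19 (adjusted p = 0.0321, limma, with overlapping libraries) and 0.14 (adjusted p = 0.00434, limma). Of the other E2F genes listed, *E2f3* (-0.07), *E2f4*, *E2f5* and *E2f7* were not called, and *E2f6* (-0.17) and *E2f8* (-0.14) were called lower.

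Of 20 mitosis genes, 18 fell (90.0%) and 2 rose, with a median log2 fold change of -0.52. Over all genes tested, 35.3% were called lower, with a median of -0.02. *Cdc20*, the activator of the anaphase-promoting complex, and *Ccnb2*, a cyclin B, changed by -0.79 (adjusted p = 4.27e-08, limma) and -0.65 (adjusted p = 1.28e-08, limma). *Kif11*, a spindle kinesin, rose from 38.1 ± 0.888 to 62.7 ± 2.19 FPKM, which is a log2 difference of 0.71 (adjusted p = 2.50e-08, limma). *Mki67*, a marker of dividing cells, was at 53.5 to 60.8 FPKM with DMSO and 58.9 to 63.0 FPKM with DADA and was called higher at 0.12 (adjusted p = 0.0240, limma), although these ranges overlapped and the call did not hold when DMSO 1, DMSO 2, DADA 3 or DADA 4 was left out.

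**Figure D4:**
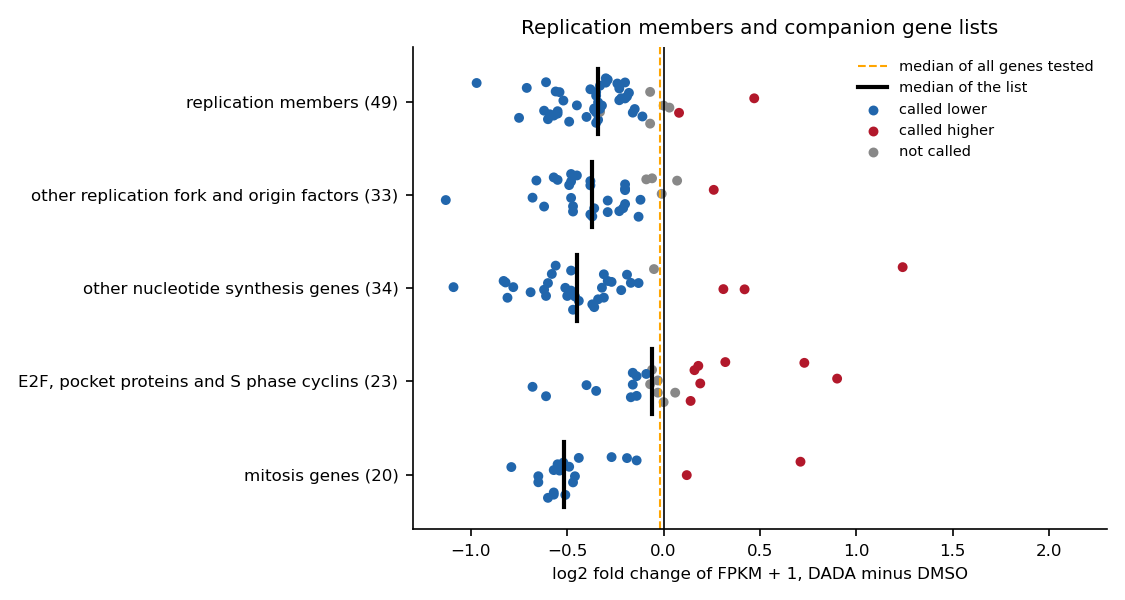
Log2 fold change of FPKM + 1, DADA minus DMSO (x axis), for each gene (points, coloured by call) of the 49 members and the 4 companion lists (y axis, number of genes in brackets), with each list's median (black bar). The medians are -0.34, -0.37, -0.45, -0.06 and -0.52 from top to bottom, beside -0.02 for all genes tested (dashed line).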

How the data were processed

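RNA-seq libraries of 4 DMSO and 4 DADA cultures were analysed. The authors deposited an FPKM table with 1 column for each library. The submitters' processing notes name CASAVA 1.8.2, FastQC 0.11.9, HISAT2 2.0.5, StringTie 1.3.3, Picard 1.41 and SAMtools 0.1.18, and the builds GRCm39 and GRCh38, with no role, so no gene coordinates are given for the values. The labels and the study's methods name different library kits, and use of strand is not given in the sources used here.

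The values were analysed as log2(FPKM + 1), for genes reaching 1 FPKM in at least 4 of 8 libraries, which understates changes of low genes. Groups were compared with limma 3.58.1 (R 4.3.3, mean-variance trend, Benjamini-Hochberg over all genes tested), tested on simulated data. For single values, the exact permutation test was two-sided and ran over all 70 assignments. Between 35.5% and 42.1% of low values lay within 0.1 of a whole fragment, so whole reads could not be recovered for a count test. Evenly spread values would give 20%, a level that does not allow for the depth having been chosen to fit these values. The 49 members, lists and alternatives were chosen with earlier results of these data known. Values in every library are given for the 2 members of each role with the largest change (3 in roles of 6 or more), members called against the majority and the member nearest 0. From each companion list, the 2 largest called changes in each direction among genes averaging 5 FPKM or more were named. Other genes were named after their values were seen. Promoter windows came from RefSeq, where 42 of 50 member windows matched a GENCODE M21 transcript on the same strand and 0 on the opposite one. Alternatives were a pseudocount of 0.1, no filter, a mean of at least 5 FPKM, rescaling to the same total, median-ratio scaling, quantile normalization, no trend, a replicate block and each library left out in turn.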

Additional observations from a re-analysis of the deposited data

Results flagged for a closer look

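A library that stood apart from its 3 fellow replicates, by Dixon's ratio of the gap to the whole range at its 95% critical value, was found in 5 of 128 groups of libraries tested, where chance alone gives about 1 in 20, or 6.40. *Rpa1* was low in DADA 2, at 31.7 FPKM against 49.5 to 51.8 FPKM in the others (ratio 0.882). The ratio looks for a single library apart, so it passed over the split of *Rpa1* with DMSO (71.9 and 72.0 against 44.6 and 44.7 FPKM). The coefficient of variation of *Rpa1*, 27.1% with DMSO and 20.5% with DADA, was the highest of the members in both groups. *Gins3* was high in DMSO 4, at 7.95 FPKM against 7.07 to 7.17 FPKM (0.884). *Prim2* was low in DMSO 2, at 24.9 FPKM against 25.9 to 26.1 FPKM (0.873). *Rrm2* was low in DMSO 1, at 107 FPKM against 113 to 114 FPKM (0.846). *Ccna2* was high in DADA 4, at 52.1 FPKM against 48.2 to 48.9 FPKM (0.843).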

How the results depend on the processing

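Of the 49 members, 44 kept their direction and their side of the threshold under all 16 other settings, among them 40 of the 42 called lower. The number of members called lower was 41 to 42 with each library left out in turn and 40 to 42 under the other settings. The median log2 fold change of the members was -0.345 to -0.33 with each library left out and -0.346 to -0.31 otherwise, the latter with each library rescaled to the same total, against -0.336 as reported. The number of members called higher was 1 in place of 2 under quantile normalization and 1 to 2 with each library left out, since *Pole2* lost its call. The replicate numbers do not pair the samples (correlation of deviations 0.0953, -0.120, -0.0877 and 0.0751 for numbers 1 to 4), and with the replicate block 42 members were called lower and 1 higher. *Cdt1*, at -0.02 to 0.02 with each library left out, turned sign to -0.01 without DMSO 2, -0.02 without DMSO 4, -0.01 without DADA 1 and -0.01 without DADA 2. *Chaf1a* was not called with each library rescaled to the same total (-0.08, adjusted p = 0.103). The cause of these changes was not tested. The number of genes called over the whole table was 7064, 6700 to 6848 with each library left out and 5741 to 7868 under the other settings. FPKM hold no counts, so counting error could not be given.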
